A study of Mus musculus with 14 samples.

Results

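The genes described here are 9 genes that mark the fetal liver or belong to imprinted growth control: Afp, Igf2, H19, Gpc3, Sox4, Cd24a, Peg3, Plagl1 and Igf2bp3. They were chosen by name after both comparisons with the Jnk1 hairpin were known, and all probe sets carrying one of these symbols were taken. By that rule 8 of the 9 genes had probe sets of their own, 26 of the 22690 on the array. The only H19 probe set is annotated to both H19 and Mir675 and is given separately under both symbols. All values come from 14 liver arrays of C57BL/6J mice with diet-induced obesity (DIO), in 3 groups that share strain and obesity. The vehicle group (n = 5) was treated with vehicle, the GFP shRNA group (n = 4, numbered 1, 2, 3 and 5) received an adenovirus with a short hairpin RNA against green fluorescent protein, and the Jnk1 shRNA group (n = 5) an adenovirus with a hairpin against Jnk1. Jnk1, encoded by Mapk8, is a stress-activated protein kinase, and the series set out to knock it down in liver alone. The labels give no age, diet, viral dose or time after treatment, and do not say that each sample was a separate mouse, so errors and p-values speak only of the spread among these samples.

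In the fetal liver, hepatoblasts secrete alpha-fetoprotein and insulin-like growth factor 2 at high levels, and both genes are shut down after birth. Imprinted genes are expressed from only the maternal or the paternal copy, and several of them set fetal growth: Igf2, Peg3 and Plagl1 are read from the paternal copy, and H19, a noncoding RNA next to Igf2, from the maternal copy. In adult liver such genes are known to return in regeneration and in liver tumours, where AFP and glypican 3 serve as markers.

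Each of the 8 genes with its own probe sets is read here on the 1 of highest mean over all 14 arrays. On all of these, and on the H19 and Mir675 probe set, the mean was higher with Jnk1 shRNA than with GFP shRNA or vehicle. The Jnk1 shRNA arrays thus had a part in choosing the probe set. Vehicle and GFP shRNA arrays alone would have chosen another for Sox4 (mean 31.7 against 22.4) and Peg3 (32.7 against 31.5). That Sox4 probe set differed by -0.06 and -0.24 from GFP shRNA and vehicle, and that Peg3 probe set by 0.76 and 1.32 (log2). The H19 and Mir675 probe set averaged 2849 with Jnk1 shRNA against 17.2 with GFP shRNA and 17.4 with vehicle, and Afp averaged 1202 against 20.1 and 12.4 (normalized intensity, geometric means). Igf2, Sox4, Peg3 and Gpc3 stood at 2.35 to 5.86 times their GFP shRNA level, and Igf2bp3, Plagl1 and Cd24a at 1.62 to 1.90 times. GFP shRNA did not differ from vehicle for any of them past the threshold. Because the 2 comparisons with Jnk1 shRNA chose the genes, those differences are described without a test.

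The promoters of the genes are given first, since their letters show how unlike the start regions of these genes are. Start regions of 7 of the 9 genes were present in the RefSeq table (assembly GRCm38.p6), 250 bases before to 50 bases after each start, with 4 starts for Igf2. The Afp promoter is a classic liver promoter, and Gpc3 and Igf2 (the last of its 4 starts) are shown beside it. Capitals mark matches to short motifs searched on both strands. For HNF1 these were GTTAAT and, as the second form of its core, GTTAAC. For the FOXA family they were TGTTTAC and, as the second form of the core, TGTTTGC. For the C/EBP family the motif was TTGCNNAA, where N is any base, for AP-1 it was TGANTCA, and the TATA box was taken as TATAAA. SP1 was searched as GGGCGG, whose other strand reads CCGCCC.
Afp, chr5:90490464-90490763, plus strand: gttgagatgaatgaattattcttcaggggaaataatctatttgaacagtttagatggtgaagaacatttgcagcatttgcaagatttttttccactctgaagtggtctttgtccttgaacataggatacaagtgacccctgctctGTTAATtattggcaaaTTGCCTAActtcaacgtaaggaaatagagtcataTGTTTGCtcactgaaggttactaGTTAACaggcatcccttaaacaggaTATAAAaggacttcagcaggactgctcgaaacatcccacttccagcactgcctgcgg
Igf2, chr7:142657447-142657746, minus strand: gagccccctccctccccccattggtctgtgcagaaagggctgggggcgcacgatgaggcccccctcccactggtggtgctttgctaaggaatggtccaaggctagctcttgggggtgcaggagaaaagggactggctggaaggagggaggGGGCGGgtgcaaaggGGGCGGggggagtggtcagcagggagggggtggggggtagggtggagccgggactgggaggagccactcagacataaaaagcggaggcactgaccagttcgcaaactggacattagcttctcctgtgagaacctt
Gpc3, chrX:52613925-52614224, minus strand: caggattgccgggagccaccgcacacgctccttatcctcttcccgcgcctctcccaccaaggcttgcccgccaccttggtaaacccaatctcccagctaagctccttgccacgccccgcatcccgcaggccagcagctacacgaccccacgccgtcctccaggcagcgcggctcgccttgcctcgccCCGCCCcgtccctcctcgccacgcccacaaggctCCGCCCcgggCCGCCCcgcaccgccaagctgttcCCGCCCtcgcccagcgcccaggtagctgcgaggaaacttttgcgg
The Afp window held 5 matches: HNF1 matches starting 105 and 32 bases before the RefSeq start, a FOXA match at 55, a C/EBP match at 89 and a TATA box at 7 bases before it. HNF1, FOXA and C/EBP proteins are the liver transcription factors known to act on this promoter. Among all 32851 promoters of this length, 9.85% held an HNF1 match, 8.48% a FOXA, 10.8% a C/EBP and 13.6% a TATAAA match. The Gpc3 window held 4 SP1 matches and none of the liver factor motifs, and the Igf2 window shown held 2 SP1 matches, a motif that 35.7% of all promoters hold. Of the windows not shown, Plagl1 held 2 SP1 matches and the third Igf2 start held 1. The first and second Igf2 starts, Sox4, Peg3 and Igf2bp3 held no match to any motif. None of the windows held a match to AP-1, the site bound by the Jun proteins that Jnk1 phosphorylates, a motif that 7.81% of all promoters hold. At that share, finding none in so few windows says nothing about Jun proteins. H19 and Cd24a had no window. A match is a description of letters, and the arrays do not measure binding.

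H19 also carries a microRNA, miR-675, within its transcript (mouse chromosome 7, minus strand, inside H19 in RefSeq). The seed, bases 2 to 8, is in capitals.
mmu-miR-675-5p: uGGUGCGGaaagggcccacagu
mmu-miR-675-3p: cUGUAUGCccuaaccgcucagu
The arms have different seeds. The probe set reads long RNA, and the mature arms were not measured.

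A few facts of the whole data set bear on what follows. After quantile normalization, 13575 probe sets of higher mean intensity were kept. The lowest kept mean was an intensity of 28.4, and a fold against a group under that level is uncertain in size. Mapk8 itself was lower with Jnk1 shRNA than with GFP shRNA by a log2 difference of -1.31 ± 0.11 (SE), which bears out the labels. Bacterial spike-in controls read 7.89 to 8.76 (log2) on the Jnk1 shRNA arrays against 8.77 to 9.03 and 8.83 to 9.01 on the vehicle and GFP shRNA arrays. The spike-in level thus moves with the group, and its part in the results was not tested beyond a fit with it as a covariate. Array 2 of the GFP shRNA group had a median of 58.3 before normalization against 45.8 to 47.8 on the other 3, and values without it are given beside several results. In whole liver, fewer cells of a type and less RNA per cell cannot be told apart.

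Of the 26 probe sets of the genes, 12 passed the intensity filter and 14 did not. With 5 of the 12, the vehicle and GFP shRNA arrays averaged below the filter level, so that these passed only through the Jnk1 shRNA arrays, and their number supports nothing. On 8 of the 12, every Jnk1 shRNA array lay above every GFP shRNA and vehicle array, as on 10.4% of all kept probe sets, and since that contrast chose the genes nothing is read from the count. On the deposited scale, without quantile normalization, 6 did, because Gpc3 and Plagl1 then overlapped the GFP shRNA group. Among the 14 probe sets under the filter, 3 were separated in the same way. The share over all probe sets was not taken on the deposited scale or under the filter, so nothing is read from these counts either.

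**Figure D1:**
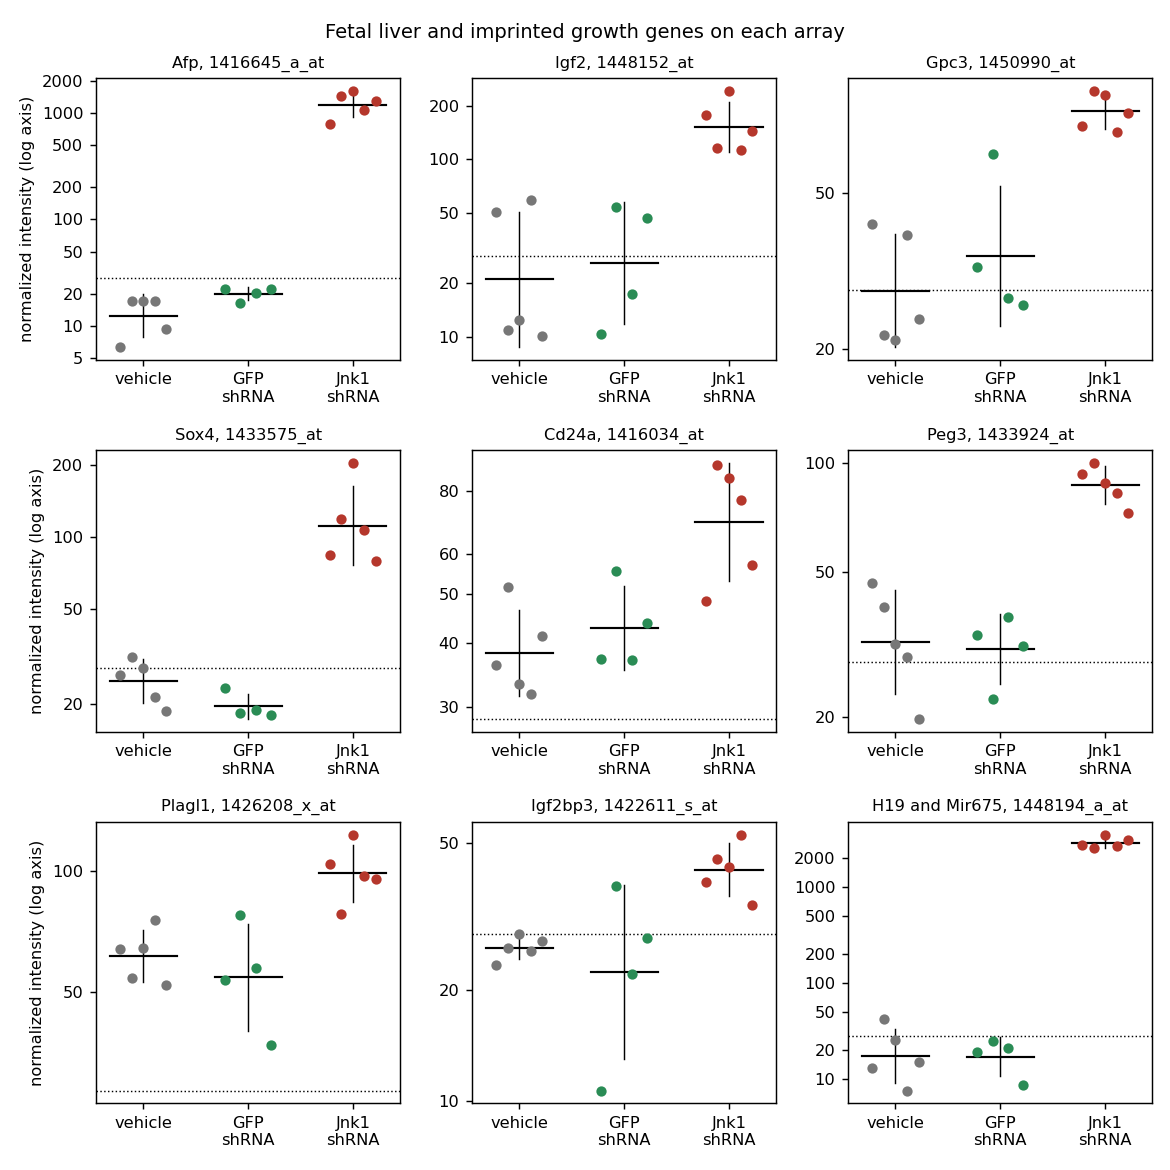
Normalized intensity (log axis) of each gene's brightest kept probe set, and of the H19 and Mir675 probe set, on the 5 vehicle, 4 GFP shRNA and 5 Jnk1 shRNA arrays. Points are arrays, horizontal lines geometric means, vertical lines 1 SD of log2 intensity either side, and the dotted line the lowest kept mean of 28.4. The Jnk1 shRNA points lie above all others in every panel except Cd24a and Igf2bp3.

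Afp encodes alpha-fetoprotein, the main plasma protein of the fetus and the fetal relative of albumin. Its brightest probe set (1416645_a_at) read 6.3, 17.2, 17.2, 17.1 and 9.3 on vehicle arrays 1 to 5, 22.1, 16.4, 20.2 and 22.4 on GFP shRNA arrays 1, 2, 3 and 5, and 788, 1430, 1602, 1062 and 1307 on Jnk1 shRNA arrays 1 to 5. The Jnk1 shRNA arrays did not overlap the others, and the lowest of them was array 1. The difference was 5.90 ± 0.28 (log2, SE) against GFP shRNA and 6.59 ± 0.27 against vehicle. Since both control groups lie below 28.4, these folds are uncertain in size, and with log2(intensity + 16) in place of the floor they were 5.07 and 5.39. A second kept Afp probe set (1416646_at) gave 5.56 ± 0.49 and 6.80 ± 0.46, with 354 to 1042 on the Jnk1 shRNA arrays and 2.01 to 19.2 on the others. Of the 3 Afp probe sets under the filter, 1436879_x_at read 298 to 1148 on the Jnk1 shRNA arrays and at most 11.2 on the others, while 1436880_at read 3.8 to 15.1 with Jnk1 shRNA and overlapped both groups. The last, 1436881_x_at, read 6.1 to 41.2 with Jnk1 shRNA and overlapped GFP shRNA, which reached 6.6, but not vehicle. GFP shRNA against vehicle gave 0.69 (adjusted p = 0.25) and 1.24 (adjusted p = 0.226) on the kept pair. The second of these passed without vehicle array 2, at 1.69 (adjusted p = 0.0282), with both groups near the bottom of the scale.

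H19 is a noncoding RNA abundant in fetal liver and placenta. The probe set annotated to H19 and Mir675 (1448194_a_at) read 13, 41.9, 25.4, 7.6 and 15.1 on the vehicle arrays, 19, 25, 20.9 and 8.8 on the GFP shRNA arrays, and 2694, 2513, 3451, 2655 and 3025 on the Jnk1 shRNA arrays. The last are above all others by a wide margin and differ little among themselves. The difference was 7.37 ± 0.38 against GFP shRNA and 7.36 ± 0.36 against vehicle, or 6.40 and 6.36 with log2(intensity + 16). GFP shRNA and vehicle differed by -0.02 (adjusted p = 0.991). Mir675 lies inside H19, so the probe set cannot separate the 2 annotations. It reads long RNA, and the mature microRNA was not measured.

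Igf2 encodes insulin-like growth factor 2, the growth factor of the fetus. Its kept probe set read 50.3, 11, 12.3, 59.1 and 10.1 on the vehicle arrays, 10.3, 53.6, 17.4 and 46.6 on the GFP shRNA arrays, and 178, 116, 241, 112 and 144 on the Jnk1 shRNA arrays. The Jnk1 shRNA arrays were all above the others, and in each control group 2 arrays read 46.6 to 59.1 while the rest read at most 17.4. The difference was 2.55 ± 0.57 against GFP shRNA (2.11 without array 1 and 2.90 without array 2 of that group) and 2.85 ± 0.54 against vehicle, or 1.93 and 2.08 with log2(intensity + 16). GFP shRNA against vehicle gave 0.30 (adjusted p = 0.859). The other Igf2 probe set was under the filter, at 9.0 to 28.8 with Jnk1 shRNA and 3.5 to 26.6 on the others, and overlapped both groups.

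Igf2bp3 encodes an RNA-binding protein of fetal and tumour cells that binds Igf2 messenger RNA. Its kept probe set, whose suffix marks probes that can match other transcripts too, read 23.4, 25.9, 28.3, 25.5 and 27.1 with vehicle, 10.6, 38.3, 22 and 27.7 with GFP shRNA, and 39.3, 45.2, 43.2, 52.7 and 33.9 with Jnk1 shRNA. Jnk1 shRNA arrays lay above all vehicle arrays but overlapped GFP shRNA, whose array 2 exceeded Jnk1 shRNA array 5. The difference was 0.93 ± 0.29 against GFP shRNA and 0.71 ± 0.27 against vehicle. Against GFP shRNA it was 0.57 without GFP shRNA array 1 and 1.19 without array 2, so these arrays set its size. A further Igf2bp3 probe set under the filter (1422610_s_at) read 38.4 to 51.3 with Jnk1 shRNA and 2.1 to 23.0 on the others, without overlap. The remaining Igf2bp3 probe sets, 1450687_at and 1453957_a_at, were also under the filter, and both overlapped the GFP shRNA and the vehicle group.

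Gpc3 encodes glypican 3, a heparan sulfate proteoglycan of the cell surface whose loss causes fetal overgrowth. Its only probe set read 41.9, 21.7, 21.1, 39.1 and 23.8 with vehicle, 32.5, 63.0, 27.0 and 25.9 with GFP shRNA, and 74.6, 91.4, 89.4, 71.8 and 80.3 with Jnk1 shRNA. Jnk1 shRNA was highest without overlap, and the nearest other array was GFP shRNA array 2. The difference was 1.23 ± 0.27 against GFP shRNA, 1.52 without that array, and 1.52 ± 0.25 against vehicle. GFP shRNA against vehicle gave 0.29 (adjusted p = 0.659).

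Cd24a encodes a small glycoprotein of the cell surface found on progenitor and immature cells. Its brightest probe set read 36.3, 51.7, 33.3, 31.8 and 41.4 with vehicle, 37.2, 55.6, 37.2 and 43.9 with GFP shRNA, and 48.5, 90.2, 85.1, 76.8 and 57.1 with Jnk1 shRNA. The groups overlapped, because Jnk1 shRNA array 1 lay below the highest array of each control group. The differences were 0.70 ± 0.21 against GFP shRNA (0.82 without its array 2) and 0.86 ± 0.20 against vehicle, and the second kept probe set gave 0.62 ± 0.21 and 0.65 ± 0.20, also with overlap. The third, under the filter, read 29.8 to 48.9 with Jnk1 shRNA and 15.9 to 25.6 on the others, without overlap.

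Sox4 encodes a transcription factor of the HMG box family active in developing tissues. Its probe set 1433575_at read 26.6, 31.4, 28.4, 21.5 and 18.7 with vehicle, 23.3, 18.4, 19 and 18.0 with GFP shRNA, and 84.0, 119.5, 204.1, 107.3 and 79.4 with Jnk1 shRNA. Jnk1 shRNA was higher without overlap, by 2.51 ± 0.25 against GFP shRNA and 2.17 ± 0.24 against vehicle, or 1.85 and 1.65 with log2(intensity + 16). The other kept Sox4 probe set (1455867_at) disagreed: it read 24.1 to 34.3 with Jnk1 shRNA, within 13.6 to 70.9 with GFP shRNA and 18.9 to 53.8 with vehicle, and differed by -0.06 ± 0.40 and -0.24 ± 0.37. The other 4 were under the filter, and all overlapped both groups. What is said of Sox4 therefore rests on 1 of its 6 probe sets.

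Peg3 and Plagl1 are imprinted zinc finger genes read from the paternal copy. Peg3 (1433924_at) read 46.8, 40.1, 31.7, 29.3 and 19.7 with vehicle, 33.5, 22.4, 37.7 and 31.2 with GFP shRNA, and 93.6, 100.1, 88.5, 82.9 and 72.8 with Jnk1 shRNA. The Jnk1 shRNA arrays did not overlap the others, with differences of 1.51 ± 0.23 against GFP shRNA and 1.44 ± 0.21 against vehicle. A second kept Peg3 probe set, also without overlap, gave 0.76 ± 0.30 and 1.32 ± 0.28. The third, under the filter, read 2.7 to 16.7 with Jnk1 shRNA and overlapped both groups. Plagl1 read 63.9, 54.1, 64.2, 75.6 and 52.0 with vehicle, 53.4, 77.6, 57.2 and 36.9 with GFP shRNA, and 104.1, 78.3, 123.2, 97.5 and 95.9 with Jnk1 shRNA. Its groups were barely apart, with Jnk1 shRNA array 2 at 78.3 and GFP shRNA array 2 at 77.6. The Plagl1 difference was 0.86 ± 0.19 against GFP shRNA, 1.03 without that GFP shRNA array, and 0.69 ± 0.18 against vehicle. The suffix of this probe set marks probes that can cross-hybridize. The other Plagl1 probe set, under the filter, read 2.0 to 3.4 with Jnk1 shRNA and overlapped both groups.

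**Figure D2:**
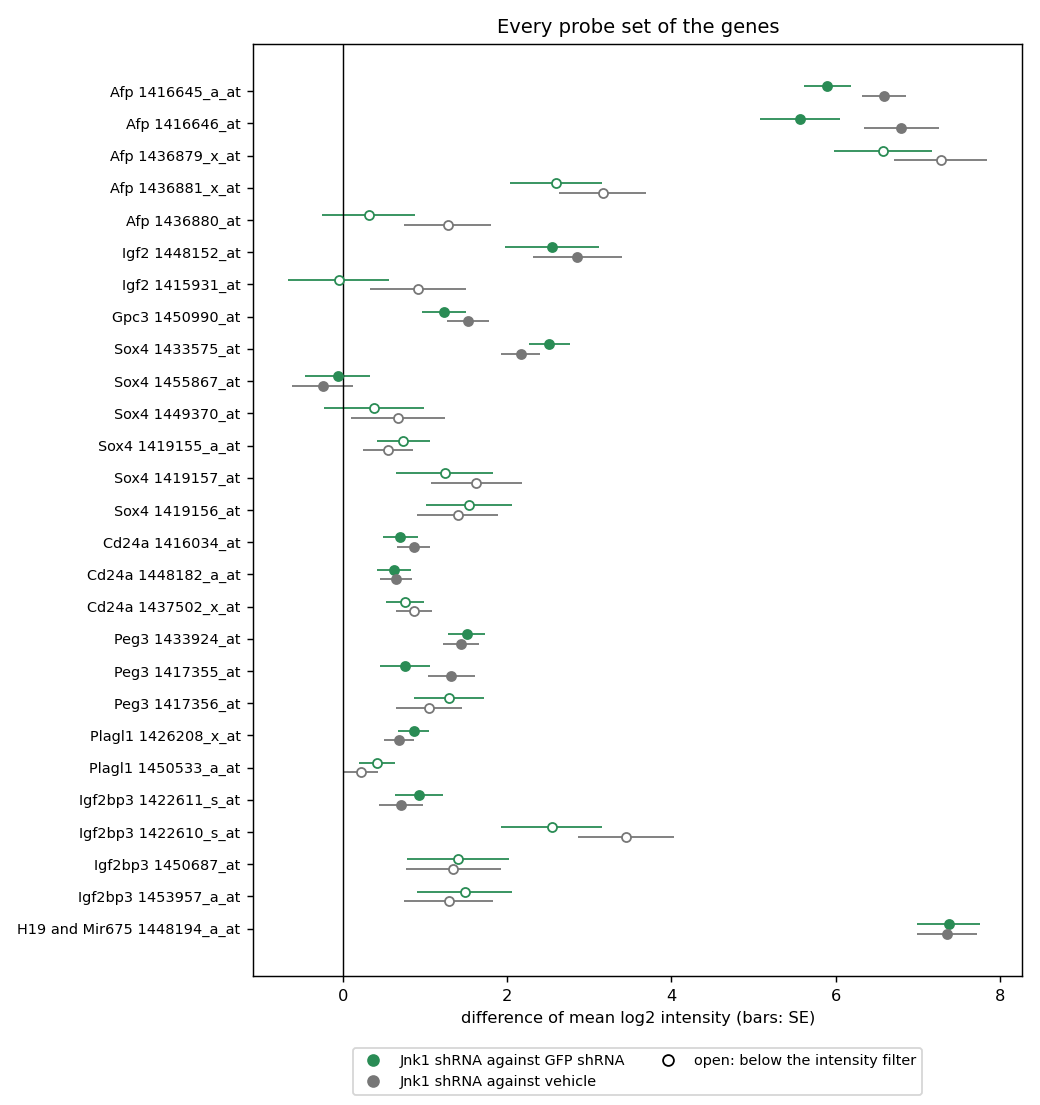
Difference of mean log2 intensity (with its SE) of every probe set of the genes and of the H19 and Mir675 probe set, Jnk1 shRNA against GFP shRNA in green and against vehicle in grey. Filled points passed the intensity filter and open points did not; the probe sets of Sox4 spread from -0.06 to 2.51 against GFP shRNA, and 3 of the 5 Afp probe sets exceed 5.

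Across the 12 kept probe sets the means were higher with Jnk1 shRNA on 11 in each comparison. Those comparisons chose the genes, so nothing is read from that count. GFP shRNA against vehicle, which did not choose the genes, called 0 of the 12 (limma, adjusted p under 0.05), where 2.58% of all kept probe sets were called. At an unadjusted p under 0.05 there were 2, both of Afp and near the bottom of the scale in both groups. The share of all kept probe sets at that threshold was not taken, so nothing is read from this count. The genes did not rank the Jnk1 shRNA arrays alike: array 3 was highest for 4 of the 8 genes (Afp, Igf2, Sox4 and Plagl1), array 2 for 3 (Gpc3, Cd24a and Peg3) and array 4 for Igf2bp3. Within the GFP shRNA group, array 2 was the highest for 5 of the 8. Jnk1 shRNA array 2 had a spike-in level of 8.76, next to the lowest vehicle array at 8.77. On that array Afp read 1430, Sox4 119.5, Peg3 100.1, Gpc3 91.4 and Igf2 116, each above every array of the other groups. Plagl1 read 78.3 there, its lowest with Jnk1 shRNA, beside 77.6 on GFP shRNA array 2, and Igf2 ranked 4 of the 5 Jnk1 shRNA arrays. These are values of 1 array for genes chosen by this contrast, and nothing is read from them about the spike-in level. With the spike-in covariate, Afp gave 6.34 against GFP shRNA, H19 and Mir675 6.85, Cd24a 1.08 and Plagl1 0.56. On their brightest probe sets Igf2 gave 2.59, Sox4 2.52, Peg3 1.43, Gpc3 1.38 and Igf2bp3 1.03. The other kept probe sets of Sox4 and Peg3 gave -0.15 and 0.59.

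The regulators of Afp were taken from a list of known activators and repressors, of which 15 were measured. Against GFP shRNA, 2 rose and 4 fell with Jnk1 shRNA (median -0.16), and against vehicle 1 rose and 8 fell (median -0.37). Over all 8027 genes measured, 17.7% rose and 16.5% fell against GFP shRNA, 19.3% rose and 19.3% fell against vehicle, and the medians were -0.02. Zbtb20 encodes the zinc finger repressor that keeps Afp silent in adult hepatocytes. It read 255 to 389 with vehicle, 277 to 395 with GFP shRNA and 139.9, 125.1, 90.7, 112.6 and 126.5 on Jnk1 shRNA arrays 1 to 5. All Jnk1 shRNA arrays were thus below all others, and Zbtb20 fell by 1.5 ± 0.14 against GFP shRNA (log2, adjusted p = 1.06e-06) and by 1.46 ± 0.13 against vehicle (adjusted p = 4.01e-07). Its other kept probe sets fell by 1.36 and 1.74 against GFP shRNA, and GFP shRNA against vehicle gave 0.04 (adjusted p = 0.934). The calls held under every alternative tried. Jnk1 shRNA array 3, which read lowest for Zbtb20, read highest for Afp. Array 1, which read highest for Zbtb20 on this probe set, read lowest for Afp. Array 4 went the other way. Its Zbtb20 value of 112.6 was above only that of array 3, and its Afp value of 1062 above only that of array 1. On another kept Zbtb20 probe set array 2 read highest, at 134.9, and its Afp value of 1430 was below only that of array 3. The group holds 5 arrays, and no relation was tested.

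**Figure D3:**
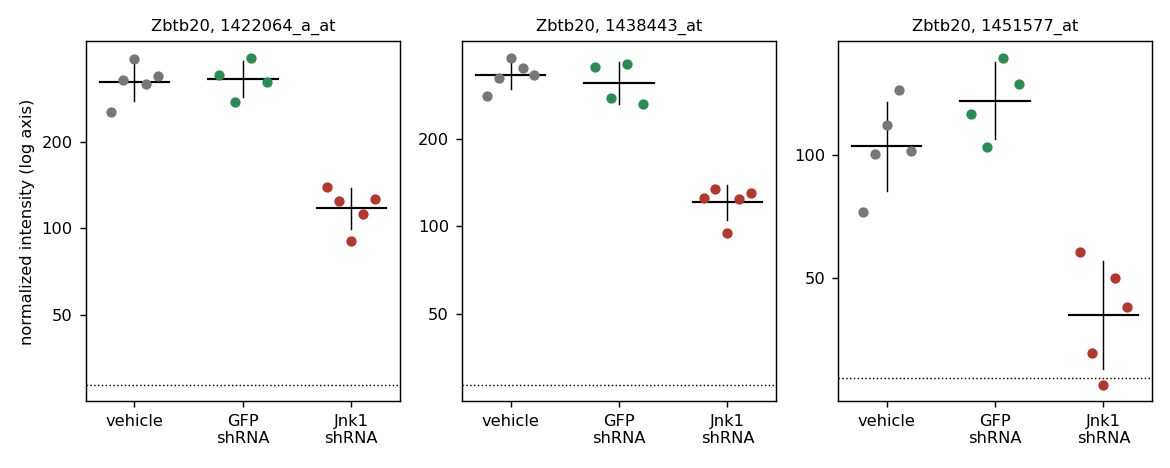
Normalized intensity (log axis) of the 3 kept Zbtb20 probe sets on the vehicle, GFP shRNA and Jnk1 shRNA arrays. Points are arrays, horizontal lines geometric means, vertical lines 1 SD of log2 intensity either side, and the dotted line the lowest kept mean. On each probe set the 5 Jnk1 shRNA arrays lie below the other 9.

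The nuclear factor I genes Nfib and Nfix, whose proteins bind the Afp promoter, also fell. Nfix fell by 0.75 ± 0.08 against GFP shRNA and by 0.85 ± 0.07 against vehicle (adjusted p = 2.45e-06 and 1.99e-07), and Nfib by 1.01 ± 0.18 and 1.34 ± 0.17 (adjusted p = 0.000416 and 1.18e-05). The 4 Nfib probe sets disagreed, from -1.84 to 0.22 against GFP shRNA. Hnf4a, a master regulator of the hepatocyte, fell by 0.52 ± 0.07 against GFP shRNA and by 0.58 ± 0.07 against vehicle, but 1 of its 4 probe sets gave 0.08 and 0.04. Under median scaling its first call was lost (-0.36, adjusted p = 0.0819). The pioneer factor Foxa2 rose by 0.69 ± 0.19 and 0.66 ± 0.18 (adjusted p = 0.00966 and 0.00721), and both calls were lost with the spike-in covariate (0.23 and 0.19). Cebpa, a hepatocyte differentiation factor, rose by 0.62 ± 0.16 against GFP shRNA (adjusted p = 0.00803), gave 0.27 against vehicle (adjusted p = 0.186), and lost its call with that covariate. Against vehicle alone, Foxa1 fell by 0.71, Nr2f2 by 0.73, Cebpb by 0.28 and Foxa3 by 0.37, the last only narrowly (adjusted p = 0.0333). Zhx1, Zfhx3, Nfia, Nr5a2 and Onecut1 passed in neither comparison. Zhx2, a further known repressor of Afp, was not analysed here.

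Afp lies between its relatives Alb and Afm on mouse chromosome 5, and neither neighbour moved on the scale of Afp. Alb, the albumin gene, gave -0.04 ± 0.05 against GFP shRNA and 0.01 ± 0.05 against vehicle (adjusted p = 0.608 and 0.854), although on the deposited scale it was called lower in both (-0.47 and -0.43). Afm, which encodes the vitamin E carrier afamin, rose by 0.60 ± 0.08 and 0.51 ± 0.08 (adjusted p = 3.5e-05 and 5.56e-05), and under median scaling the rise against vehicle did not pass (0.34, adjusted p = 0.0891). The neighbours named below are the nearest genes with a kept probe set, so genes without one can lie between. On one side of H19 and Igf2, the mitochondrial ribosomal protein gene Mrpl23 gave -0.06 ± 0.11 against GFP shRNA (adjusted p = 0.688). On the other, the tetraspanin gene Cd81 rose by 0.35 ± 0.09 against GFP shRNA (adjusted p = 0.00537) and by 0.58 ± 0.08 against vehicle (adjusted p = 3.77e-05). Gpc4, the glypican gene beside Gpc3, moved the other way and fell by 0.58 ± 0.09 against GFP shRNA and by 0.52 ± 0.08 against vehicle (adjusted p = 8.07e-05 and 8.96e-05). Hprt, on the other side of Gpc3, rose against vehicle alone, by 0.32 ± 0.08 (adjusted p = 0.00487). Both neighbours of Igf2bp3 rose in both comparisons: Tmem176a by 0.82 ± 0.12 and 0.86 ± 0.11 (adjusted p = 8.68e-05 and 1.99e-05), about as much as Igf2bp3 itself, and Tra2a, a splicing factor gene, by 0.41 ± 0.12 and 0.73 ± 0.11 (adjusted p = 0.0121 and 6.47e-05). Beside Plagl1, Sf3b5 fell by 0.51 ± 0.14 against vehicle (adjusted p = 0.0104) and gave -0.23 against GFP shRNA (adjusted p = 0.262), and Ltv1 passed in neither. The measured neighbours of Sox4, Cd24a and Peg3 passed in neither comparison.

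The insulin-like growth factor axis was described from 14 measured genes besides Igf2. In each comparison 1 gene rose and 6 fell, while with arrays scaled to the same median 1 rose and 1 fell against GFP shRNA. Igf2r, an imprinted gene whose receptor carries IGF2 to the lysosome, was the one that rose. It read 159 to 169 with vehicle, 145 to 174 with GFP shRNA and 211 to 267 with Jnk1 shRNA. The groups did not overlap, and the rise was 0.45 ± 0.09 against GFP shRNA and 0.47 ± 0.09 against vehicle (adjusted p = 0.00127 and 0.00042). Igfbp2, a binding protein that holds IGF1 and IGF2 in the blood, read 1106 to 1587 with vehicle, 1002 to 1397 with GFP shRNA and 321, 166, 87.1, 94.2 and 145.6 on Jnk1 shRNA arrays 1 to 5. Its Jnk1 shRNA arrays were all below the others, and it fell by 3.02 ± 0.28 against GFP shRNA and fell by 3.18 ± 0.26 against vehicle (adjusted p = 8.63e-07 and 1.34e-07).

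Of the growth hormone and insulin-like growth factor 1 side, Igf1 fell by 0.31 ± 0.07 and 0.42 ± 0.07, the growth hormone receptor gene Ghr by 0.36 ± 0.07 and 0.31 ± 0.07, and the insulin receptor substrate gene Irs1 by 0.72 ± 0.20 and 1.09 ± 0.19, against GFP shRNA and vehicle in turn. Of the 3 kept Igf1 probe sets, 1 passed in neither (-0.07 and -0.12, adjusted p = 0.569 and 0.291). The calls of all 3 against GFP shRNA were lost with median scaling and with the spike-in covariate. Igfbp4 and Igfbp7 fell by 0.17 and 0.44 against GFP shRNA and by 0.15 and 0.35 against vehicle, with calls that other settings removed. Of the 6 kept probe sets of Igfbp4 only the brightest was called against GFP shRNA, and the others gave -0.18 to 0.01. The receptor genes Igf1r and Insr did not pass, nor did Irs2, Igfals, Igfbp1, Igfbp5 and Igfbp6.

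**Figure D4:**
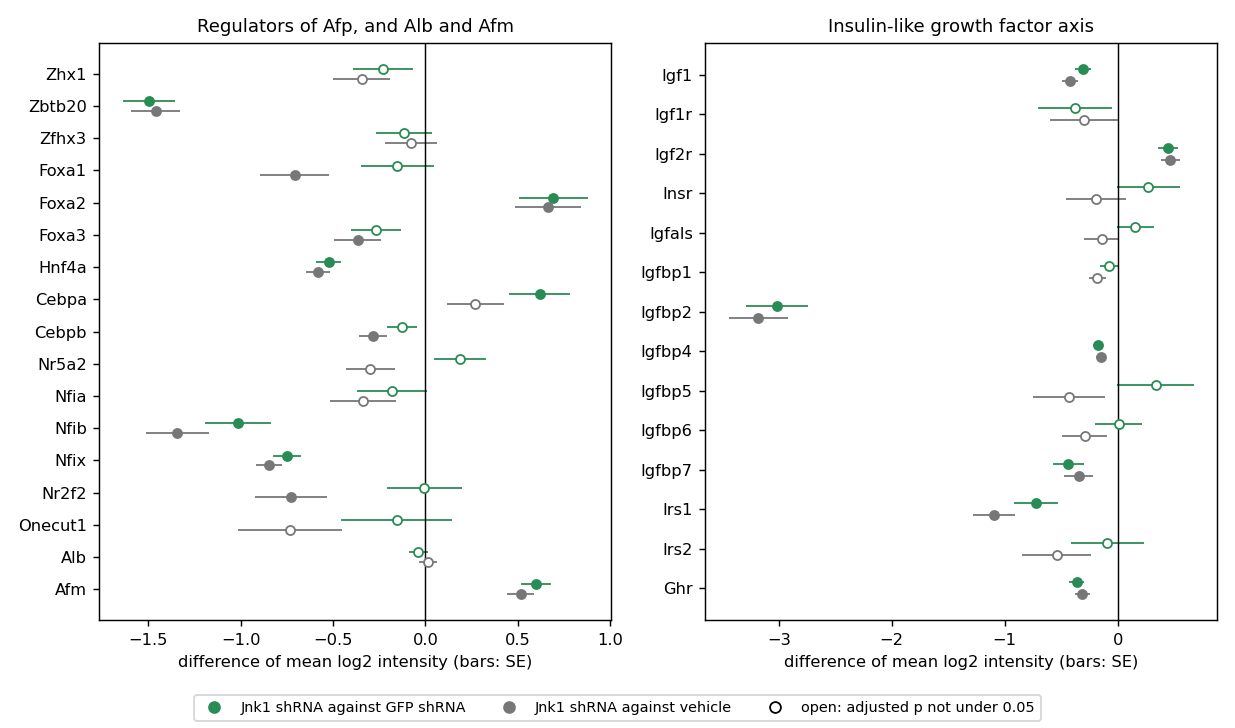
Difference of mean log2 intensity (with its SE) of the measured regulators of Afp with Alb and Afm (left) and of the insulin-like growth factor axis (right), Jnk1 shRNA against GFP shRNA in green and against vehicle in grey. Filled points have an adjusted p under 0.05; Zbtb20 at -1.5 and Igfbp2 at -3.02 against GFP shRNA lie farthest to the left of their panels. With arrays scaled to the same median Igf1, Ghr and Irs1 no longer pass against GFP shRNA.

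The other imprinted genes on the array were mixed. Of 34 on the array, 16 were measured; 2 rose and 4 fell against GFP shRNA (median -0.14), a split that became 4 and 1 with median scaling, and 2 rose and 2 fell against vehicle (median -0.08). Meg3, a maternally expressed noncoding RNA, gave 0.46 ± 0.21 against GFP shRNA (adjusted p = 0.103) and rose by 0.68 ± 0.20 against vehicle (adjusted p = 0.0112). Its second probe set rose in both, by 1.14 and 0.98. The amino acid transporter gene Slc38a4 fell by 0.38 and 0.56, the first lost with median scaling. On the brightest probe set of each, none of the 18 imprinted genes under the filter, Dlk1, Peg10 and Cdkn1c among them, had all Jnk1 shRNA arrays above both other groups. The share over all genes under the filter was not taken, so nothing is read from this.

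Other fetal liver and oncofetal genes were mixed: of 14 measured, 2 rose and 2 fell against GFP shRNA (median 0.05), and 5 rose and 3 fell against vehicle (median 0.15). Lgals1, the gene of the lectin galectin 1, rose by 1.76 ± 0.16 against GFP shRNA and by 2.58 ± 0.15 against vehicle (adjusted p = 6.27e-07 and 3.28e-09). It also rose by 0.82 ± 0.16 with GFP shRNA against vehicle (adjusted p = 0.008), a comparison in which 2.18% of all genes rose, and a call that median scaling removed (adjusted p = 0.0511). Aldoa, the gene of the aldolase of fetal and muscle tissue, rose by 0.41 ± 0.12 and 0.64 ± 0.11 (adjusted p = 0.0148 and 0.000341), the first lost without GFP shRNA array 3 and with the spike-in covariate. The glypican gene Gpc1 fell by 0.71 ± 0.16 and 0.54 ± 0.15. The genes Lin28a, Hmga2, Sall4 and Hbb-y, known from fetal liver or its blood cells, were under the filter. Of the 14 genes of the list under the filter, each read on its brightest probe set, 1, Spink1, had all Jnk1 shRNA arrays above both other groups. Here too no share over all genes under the filter was taken.

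Markers of the cells that could carry fetal genes were set beside these results. Of 9 measured biliary and progenitor markers, 1 rose and 3 fell against GFP shRNA and 1 rose and 5 fell against vehicle, with medians of -0.38 and -0.39. Against vehicle, 3 rose and 4 fell under median scaling, and 3 and 5 with the replicate block. Krt23 rose by 3.79 ± 0.42 against GFP shRNA, whereas the keratin genes Krt8 and Krt18 fell by 1.00 ± 0.20 and 1.11 ± 0.20, calls that the spike-in covariate removed. The defining markers Krt19, Krt7, Epcam, Sox9 and Prom1 were all under the filter, and the summed intensity of the list was 2929 to 3621 with Jnk1 shRNA, 4276 to 7014 with GFP shRNA and 3081 to 5584 with vehicle. Fetal liver is also a site of blood formation. Of 4 measured erythroid markers, 1 rose and 2 fell against GFP shRNA and 3 fell against vehicle, and the summed intensity was 518 to 673 with Jnk1 shRNA against 727 to 895 and 787 to 1295. Alas2, the erythroid enzyme of haem synthesis, fell by 2.02 ± 0.14 against GFP shRNA.

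No marker of the other liver cell types that passed the filter rose against GFP shRNA, under quantile normalization or median scaling. Macrophage markers fell in 9 of 15 measured genes (summed intensity 3839 to 4667 with Jnk1 shRNA, 6242 to 7364 with GFP shRNA, 3804 to 6244 with vehicle), stellate and fibroblast markers in 5 of 12 (2218 to 2534 against 3094 to 3779 and 2803 to 2992), and endothelial markers in 4 of 13 (1190 to 1460 against 1586 to 1987 and 1786 to 1873). With median scaling these counts were 6, 2 and 2, and without GFP shRNA array 2 they were 6, 3 and 5, with the macrophage median moving from -0.57 to -0.35. Against vehicle, 1 macrophage marker rose and 5 fell (median -0.11), 1 stellate marker rose and 3 fell (median -0.11), and 6 endothelial markers fell (median -0.34). The GFP hairpin against vehicle itself raised 4 macrophage markers and lowered 2 (median 0.46), and it raised 2 stellate markers and lowered 1 endothelial marker. Of the T and NK cell markers 0 of 4 passed against GFP shRNA and 3 rose against vehicle, with summed intensities of 168 to 220 with Jnk1 shRNA, 151 to 218 with GFP shRNA and 90.8 to 114.5 with vehicle. Of 3 B cell markers 1 fell against GFP shRNA (143 to 181 against 185 to 252 and 149 to 233) and 0 passed against vehicle, and of 6 neutrophil markers 0 passed in either comparison (493 to 790 against 327 to 845 and 373 to 1153). Under the filter, the T cell gene Cd3d and the B cell gene Cr2 had every Jnk1 shRNA array above all others on their brightest probe sets. The part of these cells in the results was not tested.

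**Figure D5:**
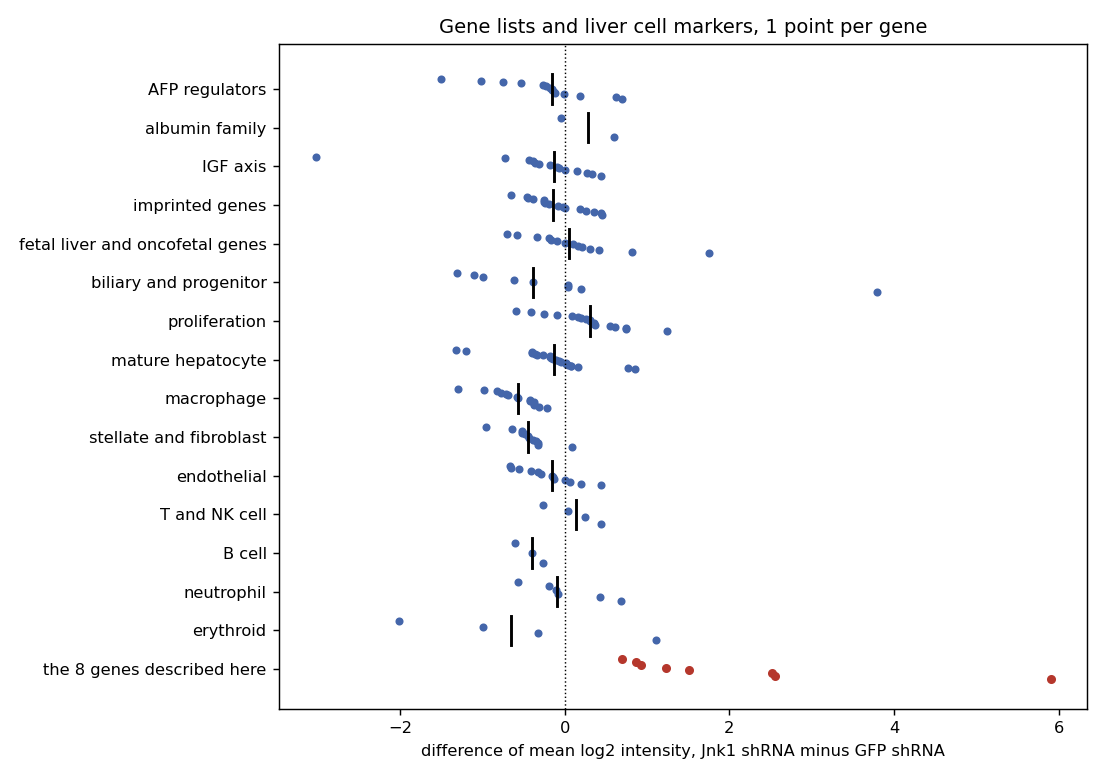
Difference of mean log2 intensity, Jnk1 shRNA minus GFP shRNA, for each measured gene of the gene lists (blue) and for the 8 genes described (red), with a black line at each list's median. The 8 genes lie between 0.70 and 5.90 by the way they were chosen; the imprinted genes have a median of -0.14, which is -0.07 with arrays scaled to the same median.

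The genes whose pattern over the 14 arrays was most like that of Afp were Rabl3, Nmt1, Cdc123, Hadhb and Myo5b, with Pearson correlations of 0.990 to 0.983. For Igf2 they were Nploc4, Tpd52, Rogdi, Tomm40l and Gpc3 (0.949 to 0.907), and for Gpc3 they were Prmt5, Gtf2b, Atp6v1e1, Strap and Grb2 (0.953 to 0.920). These correlations run over arrays of all 3 groups that share a normalization, include the difference between the groups, and were not computed within groups. Gpc3 is the only gene described here among these neighbours.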

How the data were processed

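Total RNA from pulverized liver was biotin labelled and read on 14 one-colour Affymetrix mouse arrays, per the labels' protocols. The deposited tables hold linear intensities, 1 value per probe set, and all arrays had a mean near 150.05 after trimming 2% at either end, so the authors had scaled them. The sources used here name no software, background correction or detection calls. Array medians spanned 0.48 on the log2 scale, so the arrays were quantile normalized, floored at the 5th percentile (2.01) and log2 transformed. The 64 control probe sets and the 40% with the lowest mean were left out. Differences were tested with limma 3.58.1 (R 4.3.3) with an intensity trend, 3 group means fitted to all 14 arrays (11 residual degrees of freedom, 4.94 from the prior), and Benjamini-Hochberg adjustment over the 13575 probe sets kept. A change was called at an adjusted p under 0.05, and the fit was tested on simulated data. The number of arrays limits the precision.

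Symbols came from the platform annotation of 2016 (20393 probe sets with 1 symbol, 691 with several, 1606 with none), and promoters and microRNAs from RefSeq, GRCm38.p6. The brightest kept probe set stands for a gene. The genes described and the 15 gene lists were chosen with earlier results of these data known. All probe sets of the genes are covered, every measured gene of the lists of Afp regulators, albumin family and insulin-like growth factor axis, up to 4 genes of smallest p per comparison from each other list, and the 5 genes best correlated with Afp, Igf2 and Gpc3. A few genes under the filter, and the neighbours of each gene, were named for what they are. Alternatives were other normalizations, filters, a pseudocount of 16, variance models, array weights, fits of 2 groups, the replicate number as a block, a spike-in covariate and leaving out each array.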

Additional observations from a re-analysis of the deposited data

Results flagged for a closer look

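The probe set annotated to both H19 and Mir675 lies outside the tests of named genes, because no gene is named from a probe set with several symbols. It is listed here because its mean with Jnk1 shRNA, an intensity of 2849, lay above every vehicle and GFP shRNA array, which read 7.6 to 41.9. No sample of the 36 groups of arrays tested for the kept probe sets of the genes stood far enough from its group to be listed.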

How the results depend on the processing

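On the kept probe sets of the genes, the sign of the differences with Jnk1 shRNA was the same under every alternative that kept the probe set, except for Sox4 1455867_at. That probe set ranged from -0.43 to 0.36 against GFP shRNA when single arrays were left out. With the lowest 60% left out, only Afp 1416645_a_at and the H19 and Mir675 probe set remained. A change of the filter, of the intensity trend or of the groups fitted cannot move a difference of group means. Since these contrasts also chose the genes, nothing is read from the steady sign. Cebpa against GFP shRNA reversed to -0.0009031 with the spike-in covariate (adjusted p = 0.998); the cause was not tested. That covariate lowered the probe sets called from 4497 to 2172 for Jnk1 shRNA against GFP shRNA and from 5099 to 2858 against vehicle. GFP shRNA against vehicle went from 350 to 209 with 2 groups fitted alone. Leaving out single arrays gave 3862 to 4574, 4579 to 5475 and 198 to 381 calls, the lowest of the last without GFP shRNA array 5. Scaling to the same median made 72.3% of the calls against GFP shRNA higher, against 52.3%, and moved the median of all probe sets for GFP shRNA against vehicle to -0.11. Same-numbered samples deviated together in 2 of 13 pairs (r over 0.1, range -0.24 to 0.12). The labels do not say whether the numbers pair samples, and these correlations cannot settle it. With the replicate block 4101, 4825 and 247 probe sets were called. Of 122 calls of named list genes, 73 held under all alternatives. Low signal limits Afp, Igf2, Sox4, Igf2bp3 and H19, whose control arrays averaged under the filter level.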

Other observations

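Genes of the adult hepatocyte and of the cell cycle were also measured. Of 22 mature hepatocyte genes, 1 rose and 9 fell with Jnk1 shRNA against GFP shRNA (median -0.12), and 1 rose and 12 fell against vehicle (median -0.16); with arrays scaled to the same median these were 2 and 4, and 0 and 15. On the deposited scale 2 rose and 15 fell against GFP shRNA (median -0.39), and 19 fell against vehicle (median -0.43). Cyp1a2, a drug-metabolizing cytochrome, fell by 1.19 ± 0.15 against GFP shRNA (adjusted p = 1.49e-05). Hal, the first enzyme of histidine breakdown, fell by 1.32 ± 0.12.

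Of 18 proliferation genes, 3 rose and 2 fell with Jnk1 shRNA against GFP shRNA (median 0.31), and 12 rose against vehicle (median 0.93). Against GFP shRNA, 6 rose and 1 fell under median scaling, and 4 and 1 on the deposited scale. Under the filter, the cyclin gene Ccne2 had every Jnk1 shRNA array above all others on its brightest probe set. GFP shRNA against vehicle alone raised 11 of them (median 0.70), where 2.18% of all genes rose, or 5 with median scaling. Rrm1, a subunit of ribonucleotide reductase, rose by 0.75 ± 0.11 against GFP shRNA and by 1.26 ± 0.10 against vehicle. Mcm6, a subunit of the replicative helicase, rose by 1.24 ± 0.41 against GFP shRNA (adjusted p = 0.0298), a call lost without any 1 of 6 arrays, and by 2.69 ± 0.41 with GFP shRNA against vehicle.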
